A study of Mus musculus with 12 samples.

Results

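The genes described here encode proteins stored in the granules of Paneth cells: lysozyme (Lyz1), the protease matrilysin (Mmp7), angiogenin 4 (Ang4), intelectin 1 (Itln1), the secreted phospholipase A2 of group IIA (Pla2g2a) and 5 α-defensins (Defa17, Defa21, Defa22, Defa24 and Defa30). They were taken by name, not by their values, and make up 10 of the 45808 rows of the deposited table. For 9 of them the row carries the same symbol, and Defa30 was found under its older name, Gm15284. RNA was sequenced from the distal ileum of mice of the inbred strain BALB/c, in 6 libraries from animals treated with Porphyromonas gingivalis and 6 from animals given PBS (phosphate-buffered saline). P. gingivalis is an oral bacterium associated with periodontitis. No genetic change is named for either group, and both groups share the strain and the tissue. The sources used here do not give the route, dose or duration of the treatment, the age or sex of the mice, or whether the 12 libraries are 12 animals. The p-values therefore measure the spread between these samples, which may be technical. Libraries are named by group and by the number in their titles.

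Paneth cells sit at the base of the small intestinal crypts next to the stem cells and release granules of antimicrobial proteins into the crypt lumen. Mouse α-defensins, also called cryptdins, are made as precursors that matrilysin cuts into active peptides. Their genes lie in a cluster of many near-identical copies, and the number of copies differs between inbred strains. In bulk tissue, fewer Paneth cells and less RNA per Paneth cell cannot be told apart.

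The 5 defensin members lie in that cluster on chromosome 8. The last coding bases of each gene encode the C-terminal end of the defensin precursor, where the mature peptide lies. They are printed to show how little separates some copies. They were read from GENCODE M21 transcripts (GRCm38, all on the plus strand, 5′ to 3′), and capitals mark bases that differ from Defa24 in a pairwise alignment, which had gaps for Defa21 and Defa22. The stretches lie at chr8:21735270-21735377 for Defa24, chr8:21135396-21135503 for Defa30, chr8:21656534-21656641 for Defa17, chr8:21163048-21163155 for Defa22 and chr8:21026316-21026423 for Defa21.
Defa24: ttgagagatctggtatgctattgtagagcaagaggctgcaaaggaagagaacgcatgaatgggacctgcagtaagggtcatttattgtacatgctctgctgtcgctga
Defa30: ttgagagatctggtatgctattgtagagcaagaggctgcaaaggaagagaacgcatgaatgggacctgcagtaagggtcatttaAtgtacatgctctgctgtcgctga
Defa17: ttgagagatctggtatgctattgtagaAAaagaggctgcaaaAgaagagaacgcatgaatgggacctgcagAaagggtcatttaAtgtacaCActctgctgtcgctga
Defa22: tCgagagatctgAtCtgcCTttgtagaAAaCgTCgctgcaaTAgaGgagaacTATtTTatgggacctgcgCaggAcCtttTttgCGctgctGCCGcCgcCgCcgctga
Defa21: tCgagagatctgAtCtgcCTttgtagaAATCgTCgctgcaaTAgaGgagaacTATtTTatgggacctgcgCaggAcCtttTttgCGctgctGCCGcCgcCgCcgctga

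Defa30 differed from Defa24 at 1 base of this stretch and Defa17 at 7, while Defa22 had 31 capitals and Defa21 had 32. Over the whole coding sequence, with alignment gaps counted as differences, Defa24 and Defa30 were 98.6% identical, Defa17 and Defa30 97.2%, and Defa21 and Defa22 99.3%. Defa22 and Defa24 were 81.5% identical, so the 5 genes formed a group of 3 and a pair. The coding sequence of Defa17 was the same (100%) as that of Defa3, a defensin gene outside the 10. The other granule genes had fewer close copies. Of all 50-base windows of the transcript, 92% of those of Defa17, 74.9% of Defa22, 72.9% of Defa21, 52.4% of Defa30 and 28.1% of Defa24 also occurred in another annotated gene. The share was 16.1% for Lyz1, all with Lyz2, the lysozyme of macrophages, 4.7% for Ang4, 1.01% for Itln1 and 0 for Mmp7 and Pla2g2a. The sources used here give neither the read length nor how reads that match several genes were assigned. The value of a single defensin row is therefore uncertain, and the sum over the family is given beside it.

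**Figure D1:**
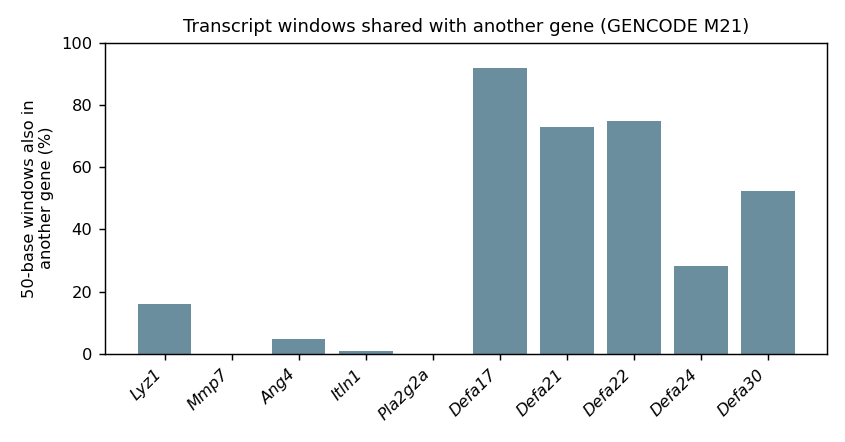
Share (%) of the 50-base windows of each transcript that also occur in another gene of GENCODE M21, 1 bar per gene. The 5 defensins lie between 28.1% and 92%, and the other 5 genes between 0 and 16.1%.

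Promoter sequence is shown for Defa30, Defa21 and Mmp7, an abundant and a nearly undetected defensin and the protease that processes them. Each is the RefSeq window of 300 bases around the annotated start (GRCm38.p6, plus strand), at chr8:21134400-21134699 for Defa30, chr8:21025295-21025594 for Defa21 and chr9:7691840-7692139 for Mmp7. Capitals mark TATAAA, the TATA box, and ATCAAAG, the core to which Tcf/Lef factors of the Wnt pathway bind. Both strands were searched, and the motifs do not overlap here.
Defa30: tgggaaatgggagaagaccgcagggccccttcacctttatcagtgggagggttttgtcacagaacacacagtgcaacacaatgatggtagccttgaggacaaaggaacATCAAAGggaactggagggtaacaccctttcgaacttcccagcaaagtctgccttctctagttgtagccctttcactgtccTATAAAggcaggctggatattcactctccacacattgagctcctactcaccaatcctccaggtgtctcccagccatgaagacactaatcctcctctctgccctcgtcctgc
Defa21: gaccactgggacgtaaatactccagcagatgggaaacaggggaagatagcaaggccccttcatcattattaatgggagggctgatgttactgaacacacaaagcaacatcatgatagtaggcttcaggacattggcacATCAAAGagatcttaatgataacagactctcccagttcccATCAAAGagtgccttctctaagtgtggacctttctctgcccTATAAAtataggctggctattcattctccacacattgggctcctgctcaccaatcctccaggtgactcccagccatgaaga
Mmp7: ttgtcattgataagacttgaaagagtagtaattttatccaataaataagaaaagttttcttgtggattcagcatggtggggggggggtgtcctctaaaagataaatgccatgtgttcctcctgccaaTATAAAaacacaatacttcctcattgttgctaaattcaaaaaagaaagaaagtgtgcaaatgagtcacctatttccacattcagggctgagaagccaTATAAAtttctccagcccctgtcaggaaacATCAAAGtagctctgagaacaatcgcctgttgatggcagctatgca

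ATCAAAG was present in the windows of 9 of the 11 defensin genes that have one, against 3.73% of all 32544 windows. TATAAA was present in 10 of the 11, against 13.6% of all windows. Neither motif was in the windows of Lyz1, Itln1 and Ang4. The defensin genes belong to a cluster of near-identical copies, so their 11 windows are not independent observations, and enrichment was not tested.

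Depth ran from 6553306 to 10378841 reads per library, and 1 read was worth between 0.714032 and 1.26049 normalized counts. The 3 libraries P. gingivalis 1, P. gingivalis 5 and PBS 6 were known from earlier results on these data to stand apart. Fabp6, the ileal bile acid binding protein and a defining marker of distal ileum, was at 2.52, 16 and 4.32 normalized counts in them, against 11246 to 69383 in the other 9 libraries. Fabp1, a fatty acid binding protein of more proximal small intestine, was at 16938 to 26745 in the 3, against 18.3 to 1821 in the 9. The difference of each granule gene is therefore given with and without these 3 libraries. Paneth cell markers were present throughout. The mean log2(normalized count + 1) of the 14 measured genes of a Paneth marker list, which holds the 10 genes themselves, ran from 9.87 to 10.49 in P. gingivalis libraries and from 9.87 to 10.62 in PBS libraries.

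Levels compared per kilobase of exon placed the row of the defensin Defa24 above all other granule genes described here. Rows and exon lengths come from the reference genome. Whether reads of other BALB/c copies fell on the Defa24 row was not tested. Defa24 averaged 66411 ± 31455 normalized counts per kilobase in P. gingivalis libraries and 58999 ± 29032 in PBS libraries (SD, n = 6 each). Lyz1 averaged 28759 ± 11175 per kilobase in P. gingivalis libraries and 28257 ± 11061 in PBS libraries. These were followed, on the same scale and over all 12 libraries, by Itln1 with 11322 ± 2824, Pla2g2a with 8456 ± 2365, Defa30 with 6772 ± 2781, Defa17 with 2346 ± 969, Ang4 with 1727 ± 362, Mmp7 with 1062 ± 143 and Defa22 with 122 ± 50.3. Neighbours kept this order in 12 of 12 libraries, except that Itln1 over Pla2g2a, Pla2g2a over Defa30 and Defa17 over Ang4 held in 11 of 12. The ranges of mean and SD overlapped in those 3 pairs and for Defa24 and Lyz1. These SDs are between libraries, while both genes of a pair were measured in the same libraries. Defa24 was above Lyz1 in every library, and the SD of their log2 ratio was 0.23. Together the 10 genes took 1.12 ± 0.337% of reads in P. gingivalis libraries and 1.08 ± 0.333% in PBS libraries.

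Treatment with P. gingivalis was not accompanied by a detected change in any of these genes. Of the 9 that had a mean of at least 10 normalized counts, 5 had a higher and 4 a lower mean log2 level in P. gingivalis libraries, and none passed the test (limma on log2(normalized count + 1), Benjamini-Hochberg adjustment over 15025 genes, adjusted p from 0.992 to 1). Over all genes the same test called 0 (0%), and 560 genes (3.73%) had an unadjusted p under 0.05, which none of the 9 had. edgeR on the recovered reads called 0 of 14907 genes (0%), with 542 (3.64%) under 0.05 unadjusted. DESeq2 called 31 of 20877 (0.148%), with 699 (3.35%) under 0.05 unadjusted. Neither tool called a granule gene, and the lowest unadjusted p among the 9 was 0.0988 with edgeR and 0.0899 with DESeq2. The groups overlapped in all 9, where 25 of the 15025 genes (0.166%) did not overlap. The median log2 difference of the 9 was 0.01, against -0.00 over all tested genes, of which 48.9% were positive. A log2 difference is P. gingivalis minus PBS throughout.

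Lyz1 encodes lysozyme, which cleaves bacterial cell walls (ENSMUSG00000069515.6, chr10:117287797-117292868, minus strand, GRCm38). Its lowest, median and highest normalized counts were 23022, 30037 and 55714 in P. gingivalis libraries, against 25863, 31471 and 63214 in PBS libraries. The groups overlapped almost fully, and the 3 highest libraries were the 3 with low Fabp6. The log2 difference was 0.01 (SE 0.31, 95% interval -0.65 to 0.67), with a two-sided exact permutation p of 0.972 over all labelings of the 12 libraries. Without the 3 libraries it was -0.14 (SE 0.24). Lyz2, the near relative that macrophages express, averaged 957 ± 307 in P. gingivalis libraries and 961 ± 214 in PBS libraries.

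Mmp7 encodes matrilysin (ENSMUSG00000018623.9, chr9:7692090-7699585, plus strand) and had the narrowest interval of the 9. The lowest, median and highest normalized counts of the gene were 969, 1263 and 1358 in P. gingivalis libraries, against 872, 1066 and 1200 in PBS libraries. The 4 highest libraries were P. gingivalis libraries, and the groups overlapped below them. Between the groups the log2 difference was 0.19 (SE 0.11, 95% interval -0.04 to 0.42, exact permutation p = 0.0996), and without the 3 libraries with low Fabp6 it was 0.16 (SE 0.12).

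Ang4 encodes a ribonuclease family protein with microbicidal activity (ENSMUSG00000060615.5, chr14:51763878-51773590, minus strand). As lowest, median and highest normalized counts it had 963, 1112 and 1382 in P. gingivalis libraries, against 1029, 1250 and 1769 in PBS libraries. The 2 lowest libraries were P. gingivalis and the 2 highest were PBS, with overlap between. On the log2 scale the difference was -0.23 (SE 0.14, 95% interval -0.54 to 0.07, exact permutation p = 0.165), and without the 3 libraries -0.17 (SE 0.16). Of the 4 measured genes of its family, itself included, none passed. Rnase4 averaged 561 ± 106 in P. gingivalis libraries and 698 ± 133 in PBS libraries, and Ang averaged 46.5 ± 11.6 in P. gingivalis libraries and 57.8 ± 10.7 in PBS libraries. Rnase1 averaged 35.1 ± 35.4 in P. gingivalis libraries and 16.9 ± 7.21 in PBS libraries. Ang5 and Ang6 had 0 reads in every library, and Ang2 had 0 in all but a PBS library at 1.04 normalized counts.

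Itln1 encodes a lectin that binds microbial sugars (ENSMUSG00000038209.12, chr1:171518122-171535294, minus strand). Its lowest, median and highest normalized counts were 7324, 12677 and 16873 in P. gingivalis libraries, against 10458, 11975 and 19679 in PBS libraries. P. gingivalis 6 was the lowest of all 12, and the groups otherwise overlapped. Its log2 difference was -0.07 (SE 0.22, 95% interval -0.54 to 0.41, exact permutation p = 0.773), and -0.13 (SE 0.21) without the 3 libraries.

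Pla2g2a encodes a secreted phospholipase that attacks bacterial membranes (ENSMUSG00000058908.14, chr4:138831857-138835186, plus strand). GENCODE M21 annotates it as a polymorphic pseudogene, since the reference strain C57BL/6J carries a disrupted copy while BALB/c carries an intact one. The lowest, median and highest normalized counts of the gene were 6421, 7414 and 11429 in P. gingivalis libraries, against 5993, 6233 and 12221 in PBS libraries. The 4 lowest libraries were PBS, but the highest was PBS as well. The log2 difference was 0.18 (SE 0.21, 95% interval -0.26 to 0.62, exact permutation p = 0.39), and 0.13 (SE 0.14) without the 3 libraries. None of the 7 measured secreted phospholipase A2 genes passed, 3 being higher and 4 lower in mean log2 level. Pla2g2d had the largest difference of them, with 45.9 ± 15.5 in P. gingivalis libraries and 29.3 ± 11.5 in PBS libraries (limma adjusted p = 0.992). Pla2g12b averaged 467 ± 168 in P. gingivalis libraries and 486 ± 92.4 in PBS libraries, while Pla2g2f had a mean of 99 over the 12 libraries. Pla2g10, Pla2g5 and Pla2g12a had means over the 12 libraries of 29.3, 18.2 and 68.2, while Pla2g1b had no reads and Pla2g2c, Pla2g2e and Pla2g3 fell under the filter.

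Defa24 (ENSMUSG00000064213.5, chr8:21734494-21735471, plus strand) was the most abundant defensin row. As lowest, median and highest normalized counts it had 16899, 21143 and 46081 in P. gingivalis libraries, against 17113, 19649 and 48591 in PBS libraries. The 3 libraries with low Fabp6 held the 3 highest values, and the remaining values of the groups were interleaved. Between the groups the log2 difference was 0.16 (SE 0.34, 95% interval -0.57 to 0.88, exact permutation p = 0.708), and -0.03 (SE 0.21) without the 3 libraries.

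Defa30 (ENSMUSG00000074444.4, chr8:21134642-21135598, plus strand) had lowest, median and highest normalized counts of 1996, 2227 and 5534 in P. gingivalis libraries, against 1720, 2194 and 3539 in PBS libraries. The high end of P. gingivalis came from replicate 1, and the other libraries overlapped. On the log2 scale the difference was 0.19 (SE 0.26, 95% interval -0.38 to 0.76, exact permutation p = 0.532), and -0.05 (SE 0.17) without the 3 libraries. Defa17 (ENSMUSG00000060208.5, chr8:21655780-21656735, plus strand) had 603, 784 and 1602 in P. gingivalis libraries, against 616, 808 and 1737 in PBS libraries, again as lowest, median and highest. These ranges nearly coincide. Its log2 difference was -0.03 (SE 0.28, 95% interval -0.63 to 0.57, exact permutation p = 0.926), and -0.14 (SE 0.17) without the 3 libraries.

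Defa22 (ENSMUSG00000074443.1, chr8:21162277-21163249, plus strand) was a weakly covered row. Its lowest, median and highest normalized counts were 20.2, 44.1 and 73.4 in P. gingivalis libraries, against 24.3, 58.4 and 82.7 in PBS libraries. The groups overlapped, and the 2 lowest libraries were P. gingivalis 1 and 5. The log2 difference was -0.36 (SE 0.35, 95% interval -1.11 to 0.39, exact permutation p = 0.355), and 0.13 (SE 0.32) without the 3 libraries. Defa21, its near-identical partner (ENSMUSG00000074447.2, chr8:21025545-21026516, plus strand), had 1 read in P. gingivalis 6 and 1 read in each of PBS 5 and PBS 6. It had 0 reads in the other 9 libraries, where a count of 0 allows up to 3 reads, and was not tested.

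**Figure D2:**
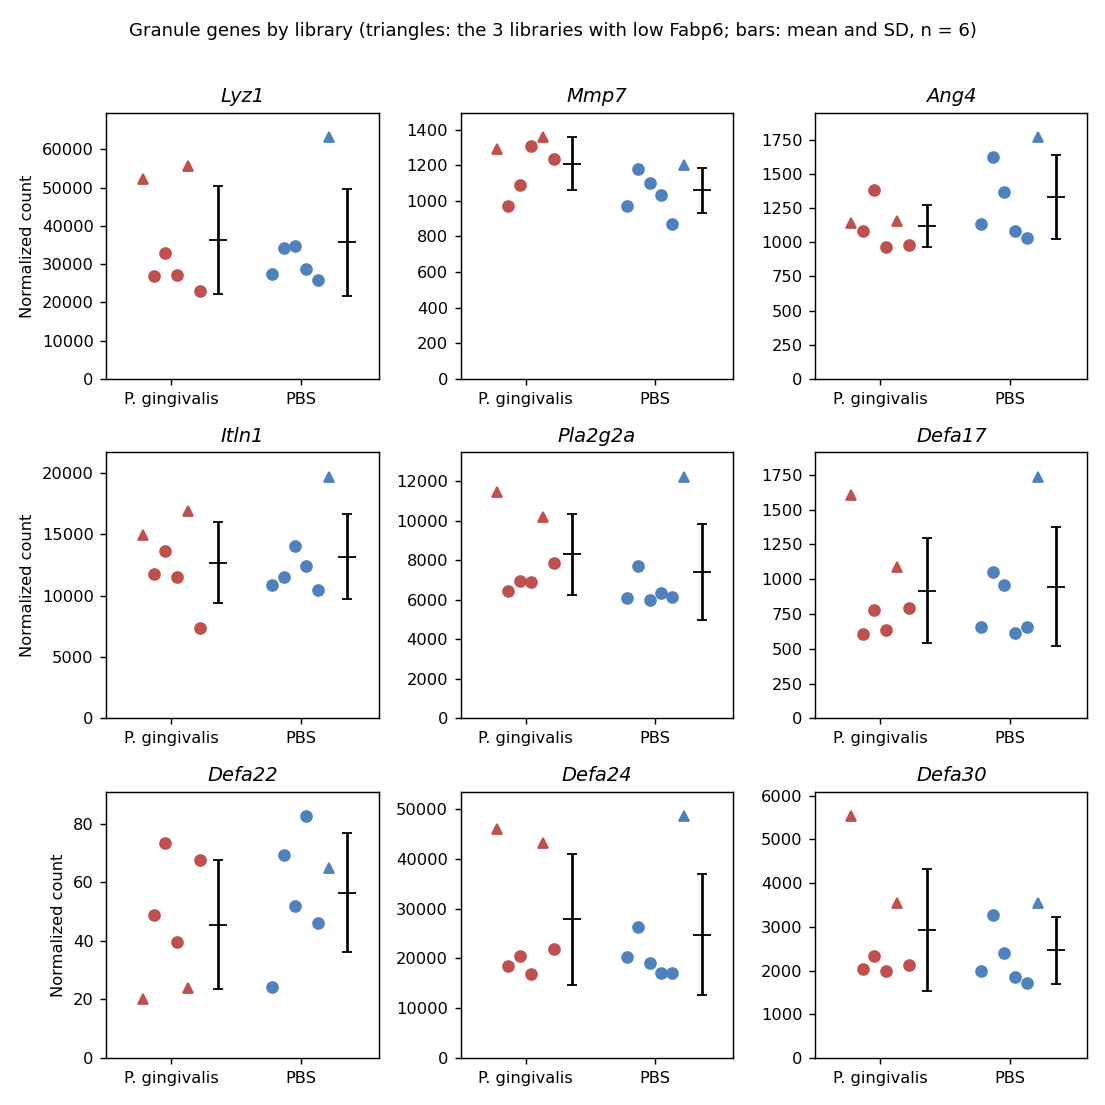
Normalized count (y axis, from 0) of 9 granule genes in each library, with P. gingivalis left of PBS, triangles for the 3 libraries with low Fabp6 and bars for the mean and SD of 6 libraries. In Lyz1 the triangles sit between 52357 and 63214 and all circles between 23022 and 34710, while in Defa22 the P. gingivalis triangles are the lowest 2 of its points, at 20.2 and 24, and the PBS triangle, at 64.8, lies among the circles.

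**Figure D3:**
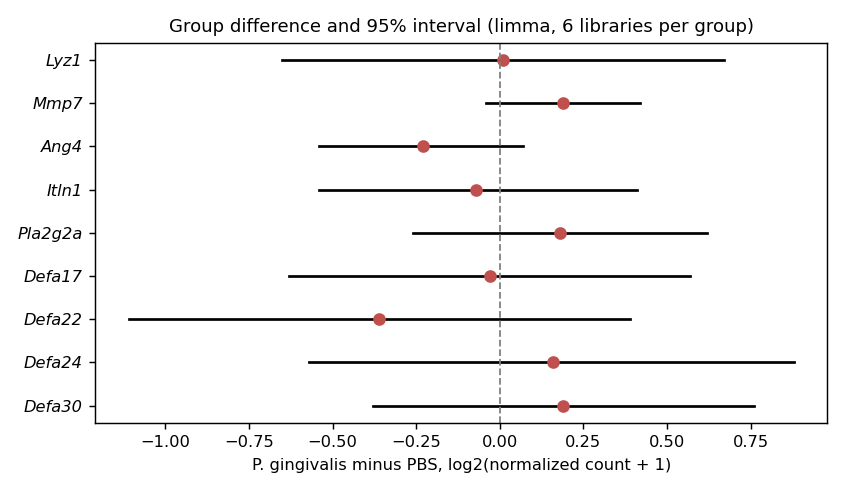
Log2 difference between groups (x axis, P. gingivalis minus PBS, on log2(normalized count + 1)) with its 95% interval from limma for 9 granule genes. Every interval includes 0, from -0.04 to 0.42 for Mmp7, the narrowest, to -1.11 to 0.39 for Defa22, the widest.

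The sum over the whole α-defensin family is not changed by moving a read from one of its summed rows to another. It could still be affected by reads left out, counted more than once or given to defensin pseudogenes, which share windows with some of these genes and are not in the sum. RefSeq lists 28 protein-coding α-defensin genes, and all had a row, 11 under the current symbol, 16 under an older name and 1 matched by position. Their sum averaged 39742 ± 19125 normalized counts in P. gingivalis libraries and 35147 ± 16843 in PBS libraries, which was 0.487 ± 0.205% of reads in P. gingivalis libraries and 0.435 ± 0.175% in PBS libraries. The log2 ratio of these means was 0.18, and -0.05 without the 3 libraries with low Fabp6. The Defa24 row alone held 70.2 ± 2.02% of the family's counts in P. gingivalis libraries and 70.2 ± 2.03% in PBS libraries. The rows of the 5 members together held 80.2 ± 1.73% in P. gingivalis libraries and 80.4 ± 1.26% in PBS libraries. The share of Defa24 ran from 67.4% to 73.1% over the 12 libraries, while the sum spanned 23769 to 67911.

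Of the 28 rows, 17 had a mean of at least 10, and 12 of them had a higher and 5 a lower mean log2 level in P. gingivalis libraries. None passed (limma adjusted p of at least 0.992), and their median log2 difference was 0.16. Rows outside the 5 members with a mean of at least 100 included Defa35 with 2311 ± 462 in P. gingivalis libraries and 2585 ± 870 in PBS libraries. Defa31 averaged 1546 ± 820 in P. gingivalis libraries and 1231 ± 492 in PBS libraries, and Defa40 averaged 825 ± 455 in P. gingivalis libraries and 660 ± 332 in PBS libraries. Defa23, with the same coding sequence (100%) as Defa31, averaged 466 ± 221 in P. gingivalis libraries and 426 ± 240 in PBS libraries. The means over the 12 libraries of Defa34, Defa3, Defa37 and Defa27 were 371, 156, 146 and 105. In 2 of the 28 rows every library had 0 reads.

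Granule genes differed in both directions between the 3 libraries with low Fabp6 and the other 9, and most of those described here were higher in the 3. In 6 of the 9 tested genes (Lyz1, Itln1, Pla2g2a, Defa17, Defa24 and Defa30) the lowest of the 3 libraries with low Fabp6 lay above the highest of the other 9, which held for 970 of 15025 genes (6.46%). In 0 of the 9 did the 3 lie below the other 9, which held for 740 genes (4.93%). The 3 libraries were grouped by a measured gene and include both treatments, so the values are a description, with no test. Lyz1 was at 52357, 55714 and 63214 in P. gingivalis 1, P. gingivalis 5 and PBS 6, against 23022 to 34710 in the other 9. Defa24 was at 43241 to 48591 in the 3, against 16899 to 26209 in the 9, and Itln1 at 14939 to 19679, against 7324 to 14028. Pla2g2a was at 10174 to 12221 in the 3, against 5993 to 7872 in the 9. Mmp7, Ang4 and Defa22 overlapped between the 3 and the 9, and the median of the 3 was 1.19, 1.06 and 0.461 times that of the 9. For Lyz1, Defa24, Defa17, Defa30, Pla2g2a and Itln1 these ratios were 2.03, 2.41, 2.44, 1.74, 1.78 and 1.46.

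Parts of the Paneth marker list outside the 10 genes went the other way, as seen after their values were known. Mptx2, which encodes a pentraxin made by Paneth cells, was at 168, 173 and 113 normalized counts in P. gingivalis 1, P. gingivalis 5 and PBS 6, all below the 177 to 515 of the other 9. Its relative Mptx1 was at 97.1, 208 and 245 in the same libraries, against 310 to 1132. Kit and Wnt3 overlapped between the 3 and the 9, with ratios of medians of 0.757 and 0.715. Of the 14 measured markers of the list, 7 lay wholly above in the 3 libraries and 1 wholly below.

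Goblet cell markers were lower on average in the 3 libraries, and crypt stem cell markers overlapped. Genes of the unfolded protein response were lower on average by a narrow margin. The mean log2(normalized count + 1) of 8 goblet cell markers was 12.06 to 12.59 in the 3 libraries, against 12.84 to 13.38 in the other 9, and that of 6 crypt stem cell markers was 8.48 to 8.87, against 8.60 to 9.08. For 20 genes of the unfolded protein response the mean was 9.78 to 9.92 in the 3, against 9.93 to 10.25 in the 9. Of these 20, Agr2, which is also a goblet marker, and Ern2 lay wholly below in the 3 libraries, and Ddit3 wholly above. Among all tested genes 4.93% lay wholly below and 6.46% wholly above, so these counts are near the shares of all genes. Spdef, a transcription factor of the secretory lineage and itself among the 8 goblet markers, was at 145 to 195 normalized counts in the 3, against 216 to 284 in the 9. The part of these genes, or of the sampled position along the gut, in the levels of the granule genes was not tested.

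Among the tested defensin rows for which a ratio could be formed, the largest ratios between the 3 libraries and the other 9 were those of Defa29, Defa38 and Defa39, which were singled out after their values were seen. Their coding sequences of 351 bases were 63.9% to 65.3% identical to Defa24, whose own is 282 bases long. Alignment gaps, which the unequal lengths force, count as differences in these shares. Defa29 was at 2997, 2347 and 1951 in P. gingivalis 1, P. gingivalis 5 and PBS 6, against 63.5 to 459 in the other 9. Defa39 was at 2130, 1805 and 1724 in the same 3 libraries, against at most 258 in the 9, and Defa38 at 303, 202 and 107, against 14.3 to 30.1. The ratios of medians of these 3 genes ran from 7.23 to 9.73, while those of 13 other defensin rows ran from 0.461 to 2.65, and 0.226% of all tested genes had a ratio at least that of Defa29. Together they made up 5.57% to 8.02% of the defensin sum in the 3 libraries, against 0.62% to 2.55% in the other 9. P. gingivalis 6, the library at the other end of the Fabp1 to Fabp6 difference (-9.66 on the log2 scale), had the lowest values of Defa29 (63.5 normalized counts) and Defa39, as it had of Lyz1 and Itln1. The others of the 10 granule genes were not lowest there, while Defa27, outside the 10, also was, at 55.7 normalized counts. Pla2g2a, at 7872, was the highest of the 9, and Defa24, at 21838, lay inside their range.

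**Figure D4:**
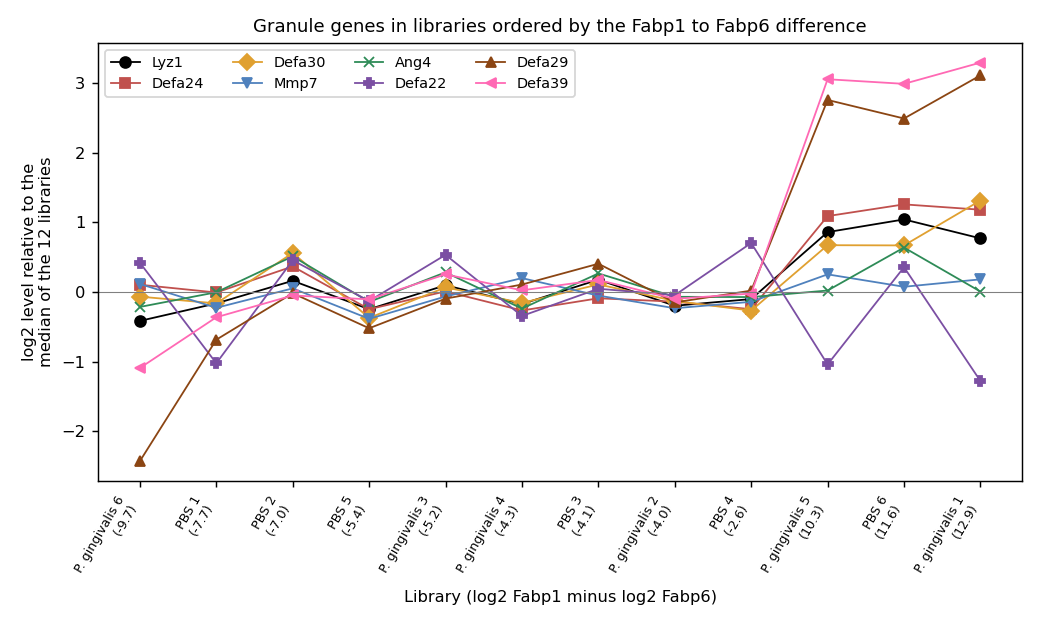
Log2 level of 8 granule genes relative to their median over 12 libraries (y axis), with libraries ordered by log2 Fabp1 minus log2 Fabp6 (x axis, value under each name). The 3 libraries on the right, with differences of 10.34 to 12.89, carry the highest points of Lyz1, Defa24, Defa30, Defa29 and Defa39, while Defa22 is at or near its lowest in P. gingivalis 1 and 5.

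The granule genes also differed in how closely they followed one another. The SD over the 12 libraries of the log2 ratio of a pair was 0.23 for Lyz1 with Defa24, 0.23 for Lyz1 with Itln1, 0.24 for Defa24 with Defa30 and 0.22 for Defa17 with Defa30. It was 0.49 for Mmp7 with Defa24 and 0.52 for Ang4 with Defa24. Defa22 was farthest from the rest, with 0.65 to 1.05. Over the 12 libraries the SD of the log2 level was 0.20 for Mmp7 and 0.28 for Ang4, against 0.48 for Lyz1 and 0.59 for Defa24, and its median over all tested genes was 0.26. These are descriptions over 12 libraries that share the difference between the 3 and the 9. Defa17, Defa24 and Defa30 also share transcript windows, and the part of shared reads was not tested.

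By the same measure, 11209 genes with a mean of at least 50 were searched for patterns most like those of the granule genes. The mean log2 level of the tested defensin members gives the weakly covered Defa22 the same weight as the others. The SD of that mean was 0.37, against 0.51 to 0.59 for Defa17, Defa24 and Defa30. For this mean the nearest were Defa35 (SD of the log2 ratio 0.169), Slc25a28, Lrrc28, Timm9, Degs1, Clps, Lyrm5 and C1qc (0.229). For Lyz1 they were Clps (0.165), which encodes pancreatic colipase, Ppa1, Defa27, Idh1, Grhpr, Gstk1, Gstm2 and Plac8 (0.223). Defa24 was followed most closely by Defa31 (0.146), Defa40 (0.156) and Psmb8 (0.205), a subunit of the immunoproteasome, and Defa30 by Defa31, Psmb9 and Psmb8. Defa17 was nearest to Clps, Defa31 and Defa35. Of the 50-base windows of Defa31, 100% also occur in other genes, among them Defa17, Defa24 and Defa30. The part of shared reads in these patterns was not tested. Pla2g2a was nearest to Ifi47 (0.128), an interferon-induced GTPase, Ncoa7 and Asb13. Itln1 was nearest to Ctsz, Decr1 and Rmdn3, Mmp7 to Fam208b, Tyms and Casc5, and Ang4 to 2410015M20Rik, Coq10a and Gm21399. The nearest genes to Defa22 were Nupr1, Neb and Hpd, at 0.424 to 0.474.

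Genes that act on Paneth cells or their granules did not pass the test either, with limma, edgeR or DESeq2. Of 24 measured genes for specification and maturation, 0 were called, 11 had a higher and 13 a lower mean log2 level in P. gingivalis libraries, and the median log2 difference was -0.01. Cdx2, an intestinal homeobox factor, averaged 1010 ± 250 in P. gingivalis libraries and 1177 ± 66.4 in PBS libraries (log2 difference -0.25, limma adjusted p = 0.992). Tcf7l2, a Wnt effector, averaged 279 ± 90.1 in P. gingivalis libraries and 214 ± 51 in PBS libraries, and the circadian repressor Nfil3 averaged 24.2 ± 10.4 in P. gingivalis libraries and 15.9 ± 3.69 in PBS libraries. Hes1, a Notch target that restrains secretory fate, averaged 205 ± 44.1 in P. gingivalis libraries and 235 ± 44.6 in PBS libraries.

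Of 18 measured genes for autophagy, microbial sensing and granule secretion, 0 were called, 6 had a higher and 12 a lower mean log2 level, and the median log2 difference was -0.04. The metallothionein Mt1 averaged 1900 ± 645 in P. gingivalis libraries and 2468 ± 562 in PBS libraries, and Mt2 averaged 551 ± 222 in P. gingivalis libraries and 672 ± 231 in PBS libraries. Rab27a, a GTPase of granule exocytosis, averaged 249 ± 47.5 in P. gingivalis libraries and 281 ± 32.4 in PBS libraries. The interferon-induced Irgm1, which acts in autophagy, averaged 297 ± 56.5 in P. gingivalis libraries and 266 ± 29.4 in PBS libraries. Of the 20 genes of the unfolded protein response, on which secretory cells rely, 0 were called, 12 were higher and 8 lower, and the median log2 difference was 0.01. Beside Mmp7, the defensin processing list had 3 tested genes, of which Furin averaged 508 ± 166 in P. gingivalis libraries and 510 ± 216 in PBS libraries.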

How the data were processed

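Per the labels' protocols, ileal tissue went into RNAlater, and polyadenylated RNA was made into Illumina TruSeq libraries. FastQC, HISAT2, Cufflinks, DESeq2 and the build GRCm38 (mm10) appear in the submitters' processing notes, with neither versions nor roles. Which counter, strand setting and annotation were used is not given in the sources used here. The deposited table holds a normalized signal, counts per gene scaled by a single factor in each library, as its name and its values show. Dividing by the step of each library gave whole reads for 100.0% of values (tolerance 0.001 reads). The replicates were no copies of each other (smallest chi-square per degree of freedom within a group 7.09). Intervals and the floor of 3 reads cover counting or sampling error only.

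Groups were compared with limma 3.58.1 (R 4.3.3, mean-variance trend) on log2(normalized count + 1) for genes with a mean of at least 10, two-sided, with Benjamini-Hochberg adjustment at 0.05. The pseudocount makes log2 differences understate changes of weak genes. edgeR 4.0.16 and DESeq2 1.42.0 were run on the recovered reads and called 0 and 31 genes, and the pipeline was tested on simulated data. Other alternatives were pseudocounts, filters, rescaling, sample weights, the title number as a block and leaving libraries out. A further alternative took log2(Fabp1 + 1) minus log2(Fabp6 + 1) as a covariate, a measured stand-in for position along the gut and not a recorded one. Gene lists for cell types and pathways were summarised by counts and medians. All 10 genes are named. Of each Paneth-related list up to 4 genes with the smallest p could be named, with all paralogs of the granule genes, defensin rows with a mean of at least 100, and the nearest patterns (8 for Lyz1 and for the defensin mean, 3 for each other gene). The genes, the lists and the 3 libraries with low Fabp6 were chosen with earlier results of these data known.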

Additional observations from a re-analysis of the deposited data

Results flagged for a closer look

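Highest values far from the other libraries of their group appeared in 7 of 46 groups of 6 libraries checked by Dixon's criterion, which chance alone flags in about 1 in 20 groups. All 7 were PBS 6, the PBS library with low Fabp6, and the genes share that library. It held 63214 normalized counts of Lyz1, 12221 of Pla2g2a, 907 of Defa23, 1951 of Defa29, 1724 of Defa39 and 107 of Defa38. Defa25 stood at 188 normalized counts (174 reads) in PBS 6 and at 0 in the other 5 PBS libraries, while P. gingivalis libraries held at most 13.6.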

How the results depend on the processing

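No granule gene was called under any alternative. Of 216 values of the 9 genes, 194 kept the sign of the log2 difference and 22 had the other sign, none of them in Mmp7, Ang4 or Pla2g2a. Other signs arose without the 3 libraries with low Fabp6 for Lyz1 (-0.14), Defa22 (0.13), Defa24 (-0.03) and Defa30 (-0.05). They also arose with the covariate of log2 Fabp1 minus log2 Fabp6 for Lyz1 (-0.13) and Defa24 (-0.01). The same held with trimmed-mean rescaling for Lyz1 (-0.01), and with sample weights for Itln1 (0.05) and Defa17 (0.08). Leaving out 1 library gave -0.13 to 0.19 for Lyz1, -0.16 to 0.08 for Itln1, -0.21 to 0.17 for Defa17, -0.01 to 0.38 for Defa24, -0.01 to 0.31 for Defa30, -0.58 to -0.16 for Defa22, 0.13 to 0.25 for Mmp7, -0.3 to -0.15 for Ang4 and 0.08 to 0.34 for Pla2g2a. Over all genes, sample weights gave 1 higher and 19 lower calls, DESeq2 3 higher and 28 lower, a pseudocount of 5 gave 1 lower and leaving out the 3 libraries 1 higher. Leaving out 1 library gave 0 to 1 higher and 0 to 52 lower calls, with 52 lower without P. gingivalis 6 and 7 without PBS 5. The cause was not tested. The defensin sum's log2 ratio was -0.04 to 0.47 leaving out 1 library.

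With the title number as a replicate block, 0 genes were called. The numbers did not pair the samples: deviations of same-numbered libraries correlated at -0.542 to 0.0808, and none correlated best with its own number.

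At this depth Defa21 cannot be compared, Defa22 rests on few reads, and near-identical copies limit each defensin row. The rows follow the reference genome, and whether BALB/c carries each copy was not tested.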

Other observations

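Single defensin rows stood high in 1 library, and these were picked after their values were seen. Defa3 was at 470 normalized counts in PBS 6 and at 53.8 to 200 in the other 11 libraries, although its coding sequence is the same as that of Defa17. Defa26 was at 361 in P. gingivalis 3, against 45.4 to 173 elsewhere. The ratio of Defa24 to Lyz1 (log2 of normalized counts, not per length) ran from -0.69 to -0.08 in P. gingivalis libraries and from -0.86 to -0.38 in PBS libraries.

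Of the marker lists for other cells, limma, edgeR and DESeq2 called no gene. Lep and Plin1 were called lower with sample weights, and all 4 fat cell markers (Adipoq, Cfd, Lep and Plin1) were called lower without P. gingivalis 6. The 4 fat cell markers had a median log2 difference of -5.25, the 4 smooth muscle markers -0.55, the 3 ileal enterocyte markers -2.15, the 4 proximal enterocyte markers 0.16, the 8 goblet markers -0.23, the 6 crypt stem cell markers -0.11, the 7 macrophage markers 0.09 and the 5 B cell markers 0.70. The ileal markers include Fabp6 itself, and the groups hold unequal numbers of the libraries with low Fabp6. The mean log2(normalized count + 1) of the ileal markers was 2.15, 3.32 and 3.33 in P. gingivalis 1, P. gingivalis 5 and PBS 6. In the other 9 libraries it was 9.38 to 11.82. The part of these cell markers in the levels of the granule genes was not tested.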
